A study of Mus musculus with 8 samples.

Results

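The Dlk1-Dio3 locus on mouse chromosome 12 was examined through 34 of its mature miRNAs, taken from a list of names and matched exactly to the miRNA names on a mouse miRNA microarray. The array carried 33 of the 34 among 1881 mouse miRNAs. The name miR-299a-5p was absent, and the probes listed as miR-299b-5p carry it as an alias. A further 80 miRNAs of the locus on the same array, found by position or name, served for comparison. Total RNA, 100 ng per sample, from whole kidneys of male mice aged 28 weeks was labelled with Cy3, and each sample was hybridised to its own array. The control group of 4 samples is given as m/m mice of strain C57BLKS/J Iar -m+/m+, with titles that read dbm. The db/db group of 4 samples is of strain C57BLKS/J Iar -+Leprdb/+Leprdb. Homozygotes for Leprdb lack the long, signalling form of the leptin receptor in every cell and become obese and diabetic, so the kidneys of the groups differ in the state of the whole animal. Because the control names differ, a db allele in the controls can be neither assumed nor set aside here. Nothing in the labels ties each sample to an animal of its own, and p-values then measure only the spread between these samples, which may be technical.

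The Dlk1-Dio3 locus is imprinted. The protein-coding genes Dlk1, Rtl1 and Dio3 are expressed from the paternal chromosome. The long noncoding RNAs Meg3, Rian and Mirg are expressed from the maternal one, from which most of the miRNAs are also processed. The miRNAs form one of the largest clusters of the mammalian genome. They are abundant in embryo, placenta and brain and low in most adult organs. In kidney, miR-377, miR-379 and its neighbours have been studied in diabetic nephropathy, miR-433 in fibrosis, and miR-494 and miR-668 in acute injury.

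The mature sequences of the 5 members that were detected in kidney come first, because all levels reported here rest on them. They are from RefSeq (GRCm38.p6), written 5′ to 3′ with the seed, bases 2 to 8, in capitals.
mmu-miR-494-3p: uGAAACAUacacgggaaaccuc
mmu-miR-1906: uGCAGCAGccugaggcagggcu
mmu-miR-3072-5p: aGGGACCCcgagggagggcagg
mmu-miR-3544-3p: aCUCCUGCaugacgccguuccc
mmu-miR-668-3p: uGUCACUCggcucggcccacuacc
Each of the 5 has a seed of its own within the locus. Each of their array probes matched, over its full length, 1 of 1679 mature mouse sequences in the RefSeq table. Partial matches and other RNAs were not searched. RefSeq gave a sequence for 31 of the 33 members on the array, and no 2 of these shared a seed. The lone seed shared with another miRNA of the locus was GGUAGAC, of miR-379-5p and miR-1193-5p.

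The sequences of 4 well-studied members that were not detected follow, since most of the locus fell into that class. miR-127-3p and miR-136-5p lie antisense to Rtl1 and guide cleavage of its mRNA, miR-337-5p lies opposite a detected miRNA, and miR-379-5p lies near the start of the distal cluster.
mmu-miR-127-3p: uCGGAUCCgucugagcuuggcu
mmu-miR-136-5p: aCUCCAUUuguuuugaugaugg
mmu-miR-337-5p: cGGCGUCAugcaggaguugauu
mmu-miR-379-5p: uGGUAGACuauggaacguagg

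The 31 members with a RefSeq position spanned 203.3 kb, chr12:109544588-109747914 (GRCm38.p6). Of these, 9 lay within the annotated span of Rtl1, 7 within Mirg, 1 within Meg3 and 1 within Rian, and 13 lay in none of the annotated genes of the locus. The detected members were spread along the whole stretch. miR-1906 (chr12:109544588-109544609, plus strand) lies within Meg3 at the proximal end. miR-3544-3p (chr12:109585813-109585834, minus strand) lies within the Rtl1 span. miR-494-3p (chr12:109715367-109715388, plus strand) and miR-668-3p (chr12:109734774-109734797, plus strand) lie between Rian and Mirg, in no annotated gene. miR-3072-5p (chr12:109747893-109747914, plus strand) lies within Mirg at the distal end. An identical copy of miR-1906 lies on chrX:88759485-88759506 on the minus strand, so its signal cannot be assigned to chromosome 12.

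**Figure D1:**
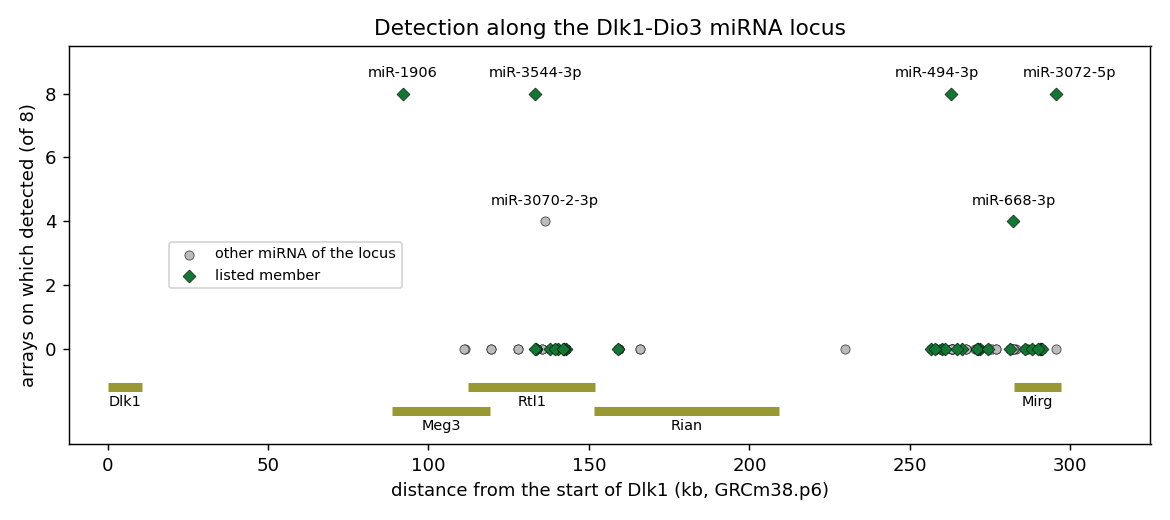
Number of arrays, of 8, on which each miRNA of the locus was detected, against its distance in kb from the start of Dlk1 (GRCm38.p6). Green diamonds are listed members, grey circles are other miRNAs of the locus, and bars below 0 mark annotated genes. The plot holds miRNAs with a RefSeq position. Most points lie at 0, and 4 members were detected on all 8 arrays.

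Most miRNAs of the locus were not detected in kidney. A miRNA counted as detected where the scanner software called it so, which on these arrays went with a total signal over 3 times its error. Of the 33 members, 5 were detected on at least 1 array, or 15.2%, and 4 of them on all 8 arrays, or 12.1%. Over all 1881 miRNAs the shares were 20.7% and 14.3%. Among the other 80 miRNAs of the locus 1 was detected, or 1.25%, so that 5.31% of the 113 locus miRNAs on the array were detected, against 21.7% of the 1768 miRNAs outside it. The list of members was drawn up with results of these arrays known, so the higher share among members than among the other miRNAs of the locus is no finding.

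Detection of members did not separate the groups. In replicate order, the control arrays had 4, 5, 4 and 5 detected members and the db/db arrays 5, 4, 5 and 4. The whole difference came from miR-668-3p, detected on 2 arrays of each group. Over all miRNAs on the array, 289 to 358 were detected per array.

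mmu-miR-494-3p, whose reported targets in injured kidney include Atf3, was lower in db/db kidneys. Signals are the processed spot signals, averaged per miRNA on the linear scale and scaled to make the arrays comparable; unscaled ones are called processed signals. In replicate order, its scaled signal on the control arrays was 653, 460, 396 and 335. On the db/db arrays it was 287, 273, 269 and 287. Every db/db value lay below every control value, and the db/db values lay close together while the controls were spread, with coefficients of variation of 3.48% and 29.9%. On the log2 scale the signal fell from 8.80 ± 0.41 to 8.12 ± 0.05 (SD, n = 4 each). The change was -0.68 ± 0.18 (SE), with a 95% interval from -1.10 to -0.26, and the control mean was 1.60-fold higher (limma with Benjamini-Hochberg adjustment over all tested miRNAs, as for every adjusted p here, with 316 in this fit; adjusted p = 0.0179). In whole kidney, fewer cells that express a miRNA and less of it per cell cannot be told apart.

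The fall was the same in direction on both probes for miR-494-3p, which share their target and are not replicates.
the 14-base probe: gaggtttcccgtgt
the 15-base probe: gaggtttcccgtgta
These are DNA, complementary to the 3′ end of the miRNA, and differ by 1 base in length. The change was -0.66 on the shorter probe and -0.73 on the longer one, and on each all 4 db/db arrays lay below all 4 control arrays. All spots for miR-494-3p were well above background on every array, and its total signal was 13.0 to 13.4 times its error. The opposite arm of the hairpin, miR-494-5p, was not detected on any array, with processed signals from -0.989 to 1.85.

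miR-494-3p was the lone member to pass the test. Of 4 tested members 1 was called lower and none higher, where 41.8% of all 316 tested miRNAs were called, 17.4% as lower and 24.4% as higher. The groups did not overlap for this 1 member, as for 41.5% of all tested miRNAs. Its p ranked 105 among the 316, and a single call among 4 is close to these background shares and is not a result about the locus. The median change was -0.06 over the 4 members and -0.02 over all tested miRNAs. The size of the fall rested in part on control replicate 1, without which it was -0.50 (limma, adjusted p = 0.00807); without control replicate 4 it was -0.82. The call was lost where all 1881 miRNAs were tested, undetected ones included (limma, adjusted p = 0.20), and there 5.16% of miRNAs were called.

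**Figure D2:**
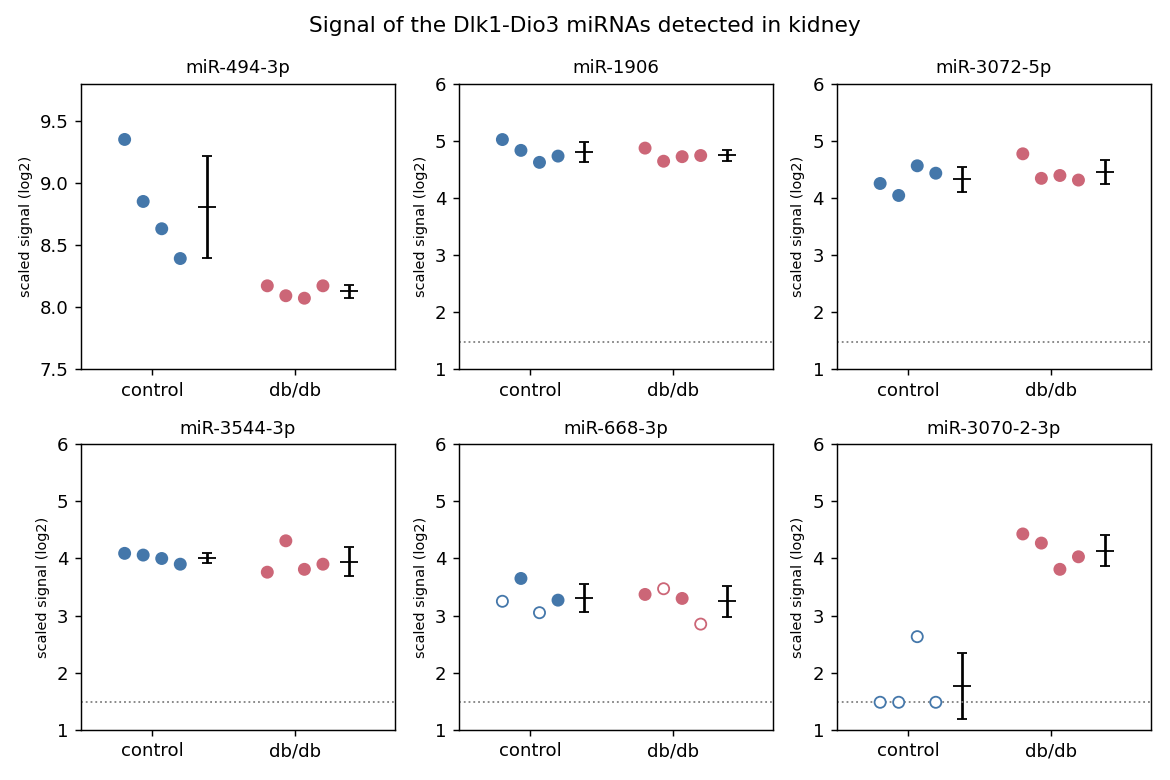
Scaled signal on the log2 scale for the 6 locus miRNAs detected on at least 1 array, by group. Points are arrays in replicate order, filled where the miRNA was detected and open where it was not, crosses with bars are mean ± SD of 4 arrays, and the dotted line is the floor of 1.48. The panel for miR-494-3p has an axis of its own. The 4 db/db points of miR-494-3p lie below all control points, the groups overlap for the other 4 members, and miR-3070-2-3p is detected in db/db kidneys alone.

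The other 3 tested members did not pass the test, and their total signals were 4.80 to 9.04 times their error. Per array, 36.7% to 100% of the spots for miR-1906 were well above background. The share was 40.0% to 53.3% for miR-3072-5p and 6.7% to 33.3% for miR-3544-3p. mmu-miR-1906 has, within Meg3, the position nearest to Dlk1 among the members. The control arrays gave scaled signals of 32.4, 28.5, 24.6 and 26.6, and the db/db arrays 29.3, 24.9, 26.3 and 26.6, again in replicate order. The groups overlapped, with log2 means of 4.80 ± 0.17 and 4.74 ± 0.10 (SD, n = 4 each). The change was -0.06 ± 0.09 (SE), with a 95% interval from -0.27 to 0.15 (limma, adjusted p = 0.606). Its sign turned to 0.07 with no scaling and with scaling to spike-ins, and to 0.01 without control replicate 1.

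mmu-miR-3072-5p, from the distal end of Mirg, had scaled signals of 19.1, 16.5, 23.5 and 21.5 on the control arrays. On the db/db arrays it had 27.3, 20.2, 21.0 and 19.8. Only db/db replicate 1 exceeded all controls. The log2 means were 4.32 ± 0.22 and 4.45 ± 0.21 (SD, n = 4 each), a change of 0.13 ± 0.14 (SE) with a 95% interval from -0.19 to 0.45 (limma, adjusted p = 0.468). It turned to -0.04 with normexp background correction. The opposite arm, miR-3072-3p, was not detected on any array.

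mmu-miR-3544-3p is read from the minus strand and its 22 bases overlap those of miR-337-5p, on the plus strand, by 17 bases. Control arrays gave 17.0, 16.71, 16.04 and 14.92 as scaled signals, and db/db arrays 13.59, 19.87, 14.05 and 14.96. db/db replicate 2 was the highest of all arrays, and 2 of the other db/db arrays lay below all controls. The log2 means were 4.01 ± 0.08 and 3.95 ± 0.25 (SD, n = 4 each). The change was -0.07 ± 0.12 (SE), with a 95% interval from -0.34 to 0.21 (limma, adjusted p = 0.673). The call turned on 1 array. Without db/db replicate 2 the change was -0.24 ± 0.06 (SE) and was called (limma, adjusted p = 0.0206), whereas unscaled values gave 0.06 and spike-in scaling 0.07. The opposite arm miR-3544-5p and both arms of miR-337 were not detected on any array.

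mmu-miR-668-3p, which represses the mitochondrial fission protein Mtfp1 in injured tubules, lay at the limit of detection. It was called detected on control replicates 2 and 4 and on db/db replicates 1 and 3. Scaled signals in replicate order were 9.53, 12.5, 8.27 and 9.65 for control and 10.3, 11.1, 9.87 and 7.19 for db/db. The detected and undetected arrays overlapped in signal, since undetected db/db replicate 2 lay above 3 of the 4 arrays called detected. Its processed signal, a mean over spots, exceeded the 95th percentile of single negative-control spots on 1 of 8 arrays. It was not detected on all arrays of a group and so was not among the 316 tested miRNAs. With miRNAs detected on at least 1 array tested instead, 390 in number, its change was -0.06 ± 0.17 (SE; limma, adjusted p = 0.809). The opposite arm, miR-668-5p, had processed signals from -6.11 to -4.32.

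**Figure D3:**
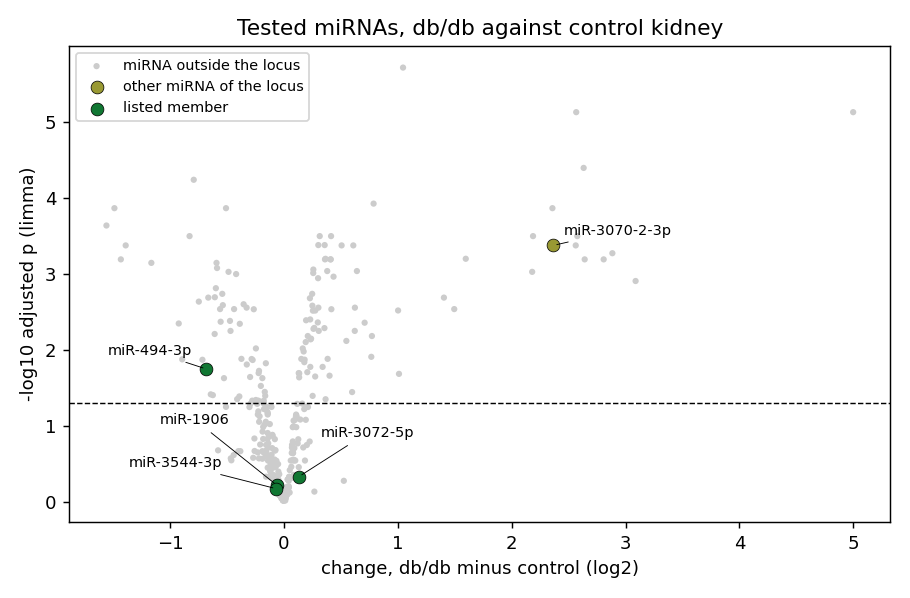
Change on the log2 scale, db/db minus control, against -log10 of the limma adjusted p for the 316 tested miRNAs. Green points are the 4 tested members, the olive point is miR-3070-2-3p and grey points lie outside the locus. The dashed line marks an adjusted p of 0.05. miR-494-3p lies above the line, at a change of -0.68. miR-3070-2-3p was tested through its detection in db/db kidneys alone, and its place is a description.

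The other 28 members, or 84.8% of those on the array, were not detected on any array. They include miR-127-3p and miR-136-5p with miR-431-5p, miR-433-3p, miR-434-3p and miR-434-5p from the Rtl1 span, miR-341-3p from Rian, and miR-154-5p, miR-369-3p, miR-377-3p, miR-409-3p, miR-410-3p and miR-541-5p from Mirg. From the stretch between the noncoding genes they include miR-300-3p, miR-323-3p, miR-329-3p, miR-376a-3p, miR-376b-3p, miR-379-5p, miR-381-3p, miR-382-5p, miR-411-5p, miR-495-3p and miR-543-3p. miR-376c-3p and miR-487b-3p, which the array design places in the locus, have no RefSeq sequence or position here. Both arms of miR-337 complete the 28. Apart from these, miR-299b-5p, whose probes match miR-299a-5p as well, was not detected on any array. Its processed signals ran from 2.17 to 6.27.

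The processed signals of the 28 ran from -5.48 to 8.69 over all arrays, and 18 of them had a median below 0. After scaling, 19 lay under the floor on all arrays and 7 on some. The other 2 lay above it on all arrays: miR-487b-3p, with processed signals from 3.76 to 8.69, and miR-136-5p, with 2.68 to 5.79. miR-127-3p ranged from 0.865 to 3.28 and miR-379-5p from -4.80 to -1.51. None of the 28 exceeded the 95th percentile of the negative-control spots, 10.7 to 14.3, on any array. That percentile is over single spots, whereas a member's signal is a mean over its spots. Means spread less than single spots, so lying below it does not show absence. Each member had 30 spots per array, and 10 of the 6720 spots of these members over 8 arrays were well above background. The mean of db/db was above that of control for 14 of the 28. No fold is given for any of them, since both groups lay under the limit of detection, and a difference was not detectable at this signal.

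**Figure D4:**
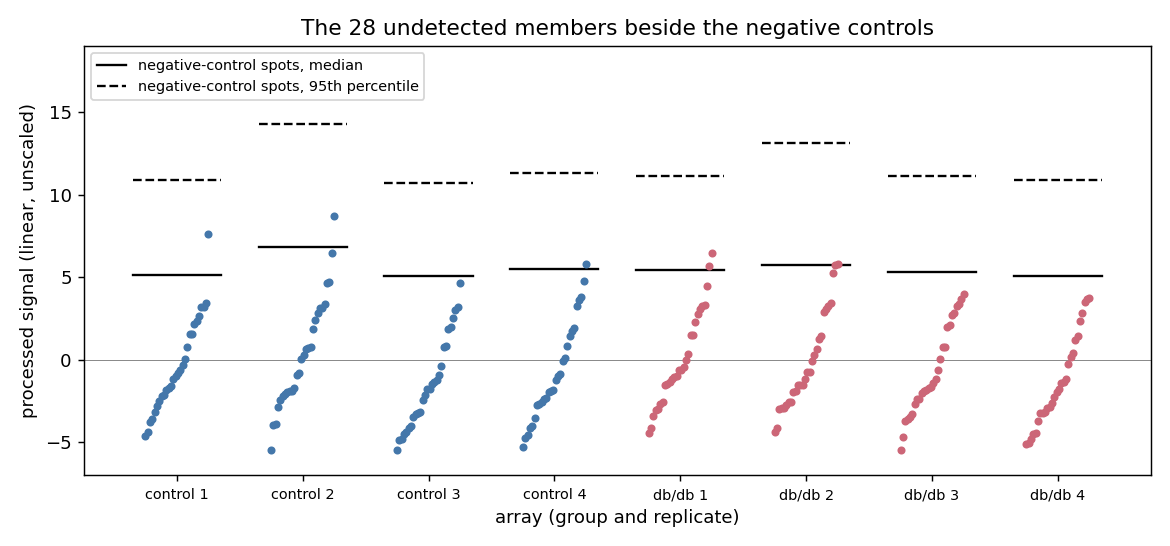
Processed signal, linear and unscaled, of the 28 undetected members on each array, ordered by value within the array. Solid lines are the median and dashed lines the 95th percentile of single negative-control spots of that array, whereas points are means over spots. All points lie below the dashed lines, and 18 members have a median below 0.

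Of the other 80 miRNAs of the locus, miR-3070-2-3p alone was detected, on each db/db array and never in control. It is encoded at chr12:109588648-109588669 (plus strand), within the Rtl1 span. It was found through its name, on a preset list for the locus, and RefSeq places it on chromosome 12. Its paralog in the same span differs at 2 of 22 bases, in capitals here. The substitutions are C9U and C10G, counted from the 5′ end of miR-3070-3p.
miR-3070-3p: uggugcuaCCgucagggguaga
miR-3070-2-3p: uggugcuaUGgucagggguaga
For miR-3070-2-3p the control arrays gave scaled signals of -2.40, -2.03, 6.17 and 0.235. The db/db arrays gave 21.5, 19.4, 14.0 and 16.4, each above every control. miR-3070-3p was not detected on any array, with processed signals from -2.87 to -0.972. The seed, GGUGCUA, is the same in both.

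On the log2 scale miR-3070-2-3p averaged 4.14 ± 0.27 over the db/db arrays and 1.77 ± 0.57 over the controls (SD, n = 4 each), with 3 of 4 control values set to the floor. It was among the tested miRNAs through its detection in db/db kidneys alone, so its difference of 2.37 is a description, given with no p-value. The size of the difference depends on the floor and on the signal used, and no fold is given. Each of its 3 probes showed the same direction, with differences of 2.22, 2.31 and 2.52. The difference over the probes was 0.22 with normexp, 6.02 in the authors' value table, where undetected arrays hold a fill value, 3.12 and 1.62 with the floor divided or multiplied by 2, and 3.38 without control replicate 3. The share of its spots well above background ran from 3.3% to 70.0% on the db/db arrays.

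The base composition and probe length of detected and undetected members are given as a description, with no test. G and C made up 45.5% to 77.3% of the bases of the 5 detected members, with a median of 66.7%, and 23.8% to 66.7% in the 26 undetected members with a sequence, with a median of 46.5%. The probes for the detected members were 10 to 15 bases long and those for the undetected members 13 to 22. All 5 detected members were among the 9 whose longest probe has at most 15 bases, and none of the 24 with longer probes was detected. The other 4 of the 9 were miR-341-3p, miR-381-3p, miR-431-5p and miR-433-3p. This limit of 15 bases was chosen after the values were seen. Over all miRNAs on the array the share detected was 20.0% for probes up to that length and 21.2% for longer ones. Among the other miRNAs of the locus 0 of 28 and 1 of 52 were detected. The part of probe length or base composition in detection was not tested.

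Several listed markers of cell types, those of tubules included, moved beside miR-494-3p. Counts of rises and falls here are calls of the same test, which called 24.4% of all 316 tested miRNAs higher and 17.4% lower. The lists were not tested as sets. All 6 tubule miRNAs listed were detected on all arrays and 4 of them rose, with summed scaled signals of 13160 to 13980 in control and 14880 to 15400 in db/db kidneys. Of 5 leukocyte miRNAs 4 fell, with sums of 469 to 622.9 and 211.8 to 305.1. Among these 4, miR-150-5p was detected on all 4 control arrays but only 1 db/db array. It was tested through the controls alone, so its fall is a description. Of 5 fibroblast, smooth muscle and pericyte miRNAs 3 fell, with sums of 1393 to 1665 and 1205 to 1301. None of 4 endothelial miRNAs passed, with sums of 4551 to 4776 and 4270 to 4458, nor did 2 erythroid ones, with 703.2 to 3058 and 645.6 to 3564. miR-122-5p, the main miRNA of hepatocytes, had scaled signals of -1.89 to 2.36 in control and 50.2 to 133 in db/db kidneys. It was among the tested miRNAs through its detection in db/db kidneys alone, so this difference is a description. The part of these markers in the fall of miR-494-3p and in the signal of miR-3070-2-3p was not tested.

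miRNAs listed as markers of brain and endocrine cells, where miRNAs of the locus are abundant, were detected in part. Among 6 brain and nerve miRNAs, miR-124-3p and miR-138-5p were not detected on any array, and none of the 3 tested passed, with sums of 80.6 to 96.9 and 85.4 to 103. Among 3 miRNAs listed as endocrine, miR-375-3p was not detected and neither of the 2 tested passed, with sums of 137.7 to 166.2 and 118.5 to 136.2. Most of the sum came from miR-212-3p, with log2 means of 6.88 in control and 6.65 in db/db kidneys. How particular miR-212-3p is to endocrine cells was not tested. Of 6 striated muscle miRNAs, 4 were not detected on any array and the 1 tested rose, with sums of 14.5 to 26.2 and 18.9 to 33.0. All 8 arrays lay on 1 slide, with the control samples in row 1 and the db/db samples in row 2, and the effects of row and genotype cannot be told apart.

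**Figure D5:**
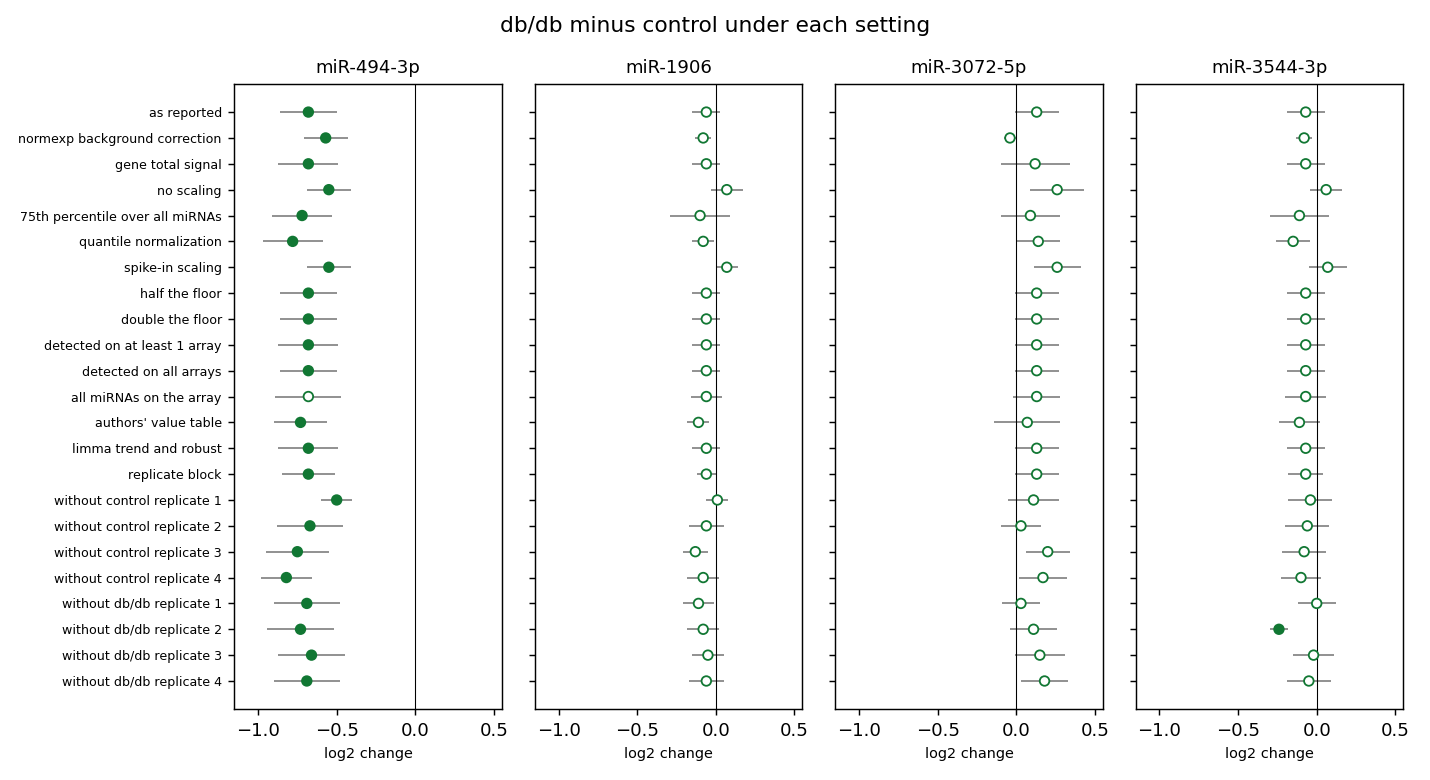
Change on the log2 scale, db/db minus control, of the 4 tested members under each processing setting, with bars of 1 SE. Points are filled where the limma adjusted p was under 0.05. miR-494-3p lies between -0.82 and -0.50 throughout, and each of the other 3 members lies on both sides of 0.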

How the data were processed

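Spot intensity values of 8 one-colour arrays were taken from the deposited scanner output; per the submitters' processing notes, the software was Agilent Feature Extraction 12.0.3.1. The authors also deposited a value table with a linear ratio per miRNA and array, in which the 28 members undetected on all arrays equal the column's median within 1e-06; the sources used here do not say how it was scaled, and it served only as an alternative. Processed signals were averaged over spots that were not outliers, then over the probes for a miRNA. Each array was scaled to an equal 75th percentile over the 269 miRNAs detected on all 8 arrays. Scaled signals under a floor of 2.80 were set to it, and log2 was taken. The 316 miRNAs detected on all 4 arrays of a group were tested with limma 3.58.1 in R 4.3.3, with Benjamini-Hochberg adjustment over all 316, 2-sided, at 0.05. The steps were tested on simulated data. Files were read with Python 3.11.15 (pandas 2.3.3, numpy 2.4.6), the R packages arrow 21.0.0 and data.table (version 1.17.8), and figures drawn with matplotlib 3.10.9.

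The number of arrays limits the precision. No miRNA spot was saturated. Other miRNAs of the locus were those the array design, read as mm9, placed on chromosome 12 from the outermost members to 200 kb beyond. Names on a preset list for the locus were added where the design or RefSeq placed them on chromosome 12. The design mixes builds, since miR-3070-2-3p has a GRCm38 coordinate there, so all coordinates printed are from RefSeq, GRCm38.p6. Every member is accounted for, each member or locus miRNA detected on at least 1 array is given on every array, and the other miRNAs named are markers, opposite arms, and miRNAs sharing a seed, alias or sequence with one of these. The members and lists were chosen with earlier results of these data known.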

Additional observations from a re-analysis of the deposited data

How the results depend on the processing

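Each tested member was recomputed under 22 alternatives of background correction, scaling, floor, filter, fit and left-out arrays. miR-494-3p was called in 21 of them, between -0.82 and -0.50, and in all 8 fits that left out 1 array. Scaling moved the median change of all tested miRNAs from -0.02 to 0.10 for unscaled values and 0.11 for spike-in scaling. The change of miR-494-3p was -0.55 under both, and after subtracting that median it ran from -0.78 to -0.50 over all alternatives. Under those same 2 scalings miR-1906 turned to 0.07 and 0.07, and miR-3544-3p to 0.06 and 0.07. Leaving out single arrays moved miR-1906 between -0.13 and 0.01, turning without control replicate 1. For miR-3072-5p those fits gave 0.03 to 0.20, whereas normexp on all 8 arrays, with an offset of 50, gave -0.04. The causes were not tested. The count of members called lower, 1, was 0 with all 1881 miRNAs tested and ranged from 1 to 2 (without db/db replicate 2) when single arrays were left out. The count of members detected, 5, was 3 when over 50% of the spots had to be well above background. miR-494-3p then passed on 8 arrays, miR-1906 on 7 and miR-3072-5p on 1. miR-3544-3p and miR-668-3p passed on no array. The other miRNAs of the locus called higher, 1, became 0 with the filter for detection on all arrays, which removes miR-3070-2-3p, and 0 with design coordinates alone. There the coordinates were read as mm9, whereas that of miR-3070-2-3p lies within its GRCm38.p6 position, so this loss comes from the build. As miR-3070-2-3p was tested through its detection in db/db kidneys alone, its calls say nothing about stability.

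Correlations of deviations between same-numbered arrays were -0.43, 0.41, -0.05 and -0.07. Those between differently numbered arrays ran from -0.43 to 0.41. These values do not settle whether replicate numbers pair the samples. With the replicate block the change of miR-494-3p was -0.68 (limma, adjusted p = 0.0322), the members called lower stayed at 1 and those called higher at 0, and calls over all miRNAs went from 132 to 144.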
